A study of Mus musculus with 3 samples.

Results

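The transcripts described here are those of 8 genes of the RAF-MEK-ERK cascade: the RAF kinases Braf and Araf, the MEK kinases Map2k1 and Map2k2, the ERK kinase Mapk3 (ERK1), and the negative feedback genes Dusp6, Spry2 and Spred1. They were chosen by name, as the kinases around the target of the inhibitor used and the genes that restrain them. All 8 of 8 were found, each as 1 row among the 32286 genes measured. Lavage cells came from mice that had all received bleomycin by airway instillation, 14 days before. The groups were wild-type mice given the vehicle DMSO (WT DMSO), wild-type mice given GW5074 (WT GW5074), and Clec7a knockout mice, without the receptor Dectin-1, given DMSO (KO DMSO). Fluid was pooled within each group and sorted for CD11b+ or CD11c+ cells, leaving 3 droplet libraries, 1 per group. With 1 library per group no difference has a replicate check, and a difference between groups cannot be told apart from one between pools or runs. The age, sex, strain and number of the mice, the GW5074 dose and the knockout allele were not given in the labels.

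In this cascade, active RAS recruits RAF kinases to the membrane, RAF phosphorylates MEK, and MEK phosphorylates ERK. ERK then drives transcription of genes that include its own inhibitors. DUSP6 removes the activating phosphates from ERK in the cytoplasm, Sprouty proteins such as SPRY2 act upstream on receptor signalling to RAS, and SPRED1 brings the RAS inactivator neurofibromin to the membrane. GW5074 is known as a RAF kinase inhibitor, an action on protein activity that transcript levels do not measure. In myeloid cells the cascade carries signals from growth factor, adhesion and pattern recognition receptors.

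Counts are unique molecular identifiers (UMIs, 1 per captured RNA molecule), summed over the cells of a class in a library and given as CPM, the count scaled to a common total of that sum. Each molecule is read at its 3' end, so these levels do not scale with transcript length. Cells were placed in classes by marker genes and are called "-like". The 7 classes with at least 100 cells in each library were alveolar macrophage-like (993, 3040 and 2786 cells in WT DMSO, WT GW5074 and KO DMSO, the order used throughout), monocyte-derived macrophage-like (2016, 5765 and 3115), monocyte-like (245, 214 and 108), neutrophil-like (2874, 133 and 197), conventional dendritic cell 1-like (cDC1-like, 705, 1129 and 720), migratory dendritic cell-like (3194, 2802 and 1769) and T cell-like cells (297, 247 and 238), which the sort was not set to keep. In every class 4 to 8 of its own markers were among its 10 leading genes. Between 19.6% and 23.96% of cells of a library met no class. The libraries held 34859676 to 45462817 UMIs, and pairs of libraries shared 80 to 154 cell barcodes. Clec7a was at 829, 903 and 14.1 CPM in alveolar macrophage-like cells, far lower in the KO library, as its label says. Brackets hold 95% exact intervals, which cover counting error only. A ratio is called higher or lower when it is at least 1.5-fold with an interval that excludes 1, in genes whose higher library reached 20 CPM and whose 2 libraries together held 50 UMIs. Ratios under the filter on low values are given but not called.

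The genes lie apart in the genome (GRCm38, 1-based, whole gene as annotated by GENCODE): Braf at chr6:39603237-39725463, Araf at chrX:20797814-20860519, Map2k1 at chr9:64185770-64253631, Map2k2 at chr10:81105915-81133975, Mapk3 at chr7:126759601-126765819, Dusp6 at chr10:99263231-99267489, Spry2 at chr14:105891947-105896819 and Spred1 at chr2:117121374-117182279. All 8 are protein-coding. Braf overlaps Ndufb2, Araf overlaps Syn1, and Map2k1 overlaps Uchl4 and Gm48855. The strand setting of the authors' counting is not given in the sources used here, so the reads of these 3 genes may include some of their neighbours'.

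The promoters of the 3 feedback genes are shown because Dusp6 and Spry2 transcripts were highest in one class and Spred1 in another. They are RefSeq windows (GRCm38.p6), from 250 bases before the start to 50 after it, written 5′ to 3′ on the gene's strand. Capitals mark the letters CCGGAA or their reverse complement TTCCGG, a form of ETS-type site, and ETS factors are classical targets of ERK. The windows are chr10:99262981-99263280 for Dusp6 (plus strand), chr14:105896770-105897069 for Spry2 (minus strand) and chr2:117120821-117121120 for Spred1 (plus strand, a start upstream of the gene start given above).
Dusp6 promoter: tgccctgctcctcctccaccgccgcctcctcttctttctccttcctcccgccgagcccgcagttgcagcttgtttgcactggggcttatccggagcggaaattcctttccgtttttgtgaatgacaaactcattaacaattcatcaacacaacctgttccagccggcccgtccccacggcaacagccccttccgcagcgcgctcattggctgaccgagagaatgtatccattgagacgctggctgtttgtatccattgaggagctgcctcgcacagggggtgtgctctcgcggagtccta
Spry2 promoter: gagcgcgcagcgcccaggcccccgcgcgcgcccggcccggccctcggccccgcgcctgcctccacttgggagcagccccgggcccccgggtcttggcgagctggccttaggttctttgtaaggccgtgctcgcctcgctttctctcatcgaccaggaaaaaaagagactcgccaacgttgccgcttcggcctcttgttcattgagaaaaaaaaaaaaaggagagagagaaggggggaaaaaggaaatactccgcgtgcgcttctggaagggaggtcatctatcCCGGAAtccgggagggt
Spred1 promoter: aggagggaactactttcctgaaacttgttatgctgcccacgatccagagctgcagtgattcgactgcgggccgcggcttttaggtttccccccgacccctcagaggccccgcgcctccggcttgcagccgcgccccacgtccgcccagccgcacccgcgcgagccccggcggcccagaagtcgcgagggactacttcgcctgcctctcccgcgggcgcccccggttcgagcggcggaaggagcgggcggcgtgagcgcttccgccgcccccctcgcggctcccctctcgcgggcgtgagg
The letters CCGGAA or TTCCGG occurred in 1 of these 3 windows, that of Spry2, and in 14.9% of 32851 promoters of the same length. Other forms of ETS-type site were not searched for, so windows without these letters may hold them. Of 7 members with a window, CCGGAA or TTCCGG was found in Araf, Map2k1 and Spry2. The cyclic AMP response element TGACGTCA was in the Braf window in 2 copies and in 1.79% of all promoters. The AP-1 letters TGANTCA were in none of the 7 and in 7.81% of all. Both strands were searched for each, and a match describes the letters only.

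Among the 3 feedback genes, Dusp6 and Spry2 were highest in neutrophil-like cells and Spred1 in migratory dendritic cell-like cells. Dusp6 was in neutrophil-like cells at 108 (95.5 to 121), 118 (68.7 to 189) and 113 CPM (65.7 to 180). It was at 38.5, 43.2 and 21.5 CPM in monocyte-like, 28.7, 23.3 and 17.4 CPM in monocyte-derived macrophage-like, and 15.8, 17.6 and 17.0 CPM in alveolar macrophage-like cells. T cell-like cells had 25.5, 14.4 and 2.93 CPM, from 12, 4 and 1 UMIs. By the mean of the 3 libraries dendritic cells were lowest, with 6.20, 7.05 and 6.10 CPM in cDC1-like and 5.21, 4.97 and 2.18 CPM in migratory dendritic cell-like cells. The neutrophil-like values did not overlap those of the next class, while the ranges of monocyte-like, both macrophage-like and T cell-like cells overlapped from each class to the next. Unless intervals are named, overlap between classes compares the 3 library values of each class and not their intervals. The neutrophil-like interval in the KO, from 65.7 CPM, just met that of monocyte-like cells with GW5074, up to 66.1 CPM.

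Spry2 was low in macrophages and dendritic cells. It had 56, 3 and 2 UMIs in neutrophil-like cells, which gave 20.8 (15.7 to 27.1), 20.8 (4.29 to 60.8) and 13.3 CPM (1.61 to 47.9). T cell-like cells followed with 12.7, 7.18 and 0 CPM from 6, 2 and 0 UMIs, and a count of 0 there allows up to 8.78 CPM. The interval of T cell-like cells in WT DMSO (4.67 to 27.7) overlapped that of neutrophil-like cells. The monocyte-derived macrophage-like class had 1.88, 1.27 and 1.21 CPM. Alveolar macrophage-like cells held 2, 1 and 0 Spry2 UMIs, and 0 allows up to 0.381 CPM. Migratory dendritic cell-like cells held 3, 2 and 1 UMIs, cDC1-like cells 1, 0 and 0, and monocyte-like cells 0, 0 and 1. Because most neutrophil-like cells came from 1 library, the level of Spry2 in that class rests on WT DMSO.

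Spred1 was highest in migratory dendritic cell-like cells, at 225 (216 to 234), 236 (223 to 249) and 239 CPM (225 to 253). Monocyte-like cells came next at 45.9, 39.1 and 36.8 CPM, and these values did not overlap those of either neighbour in the order. The interval of the last (19.0 to 64.3) did cover the values of the monocyte-derived macrophage-like class. The monocyte-derived macrophage-like class had 25.9, 27.1 and 24.2 CPM, cDC1-like cells 21.7, 26.4 and 26.7 CPM, and alveolar macrophage-like cells 17.2, 15.9 and 15.1 CPM. Neutrophil-like cells had 30.2, 27.7 and 6.63 CPM, the last from 1 UMI, and T cell-like cells 12.7, 28.7 and 29.3 CPM. Conventional dendritic cell 2-like cells, with 151, 94 and 90 cells too few to compare, had 73.0, 63.3 and 78.0 CPM.

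The Spred1 difference was also in the share of cells. With every cell thinned to 1000 UMIs, 21.2% (19.8 to 22.7), 21.8% (20.2 to 23.5) and 22.7% (20.7 to 24.7) of migratory dendritic cell-like cells had a Spred1 UMI. Alveolar macrophage-like cells, taken as the class with the lowest level, had 1.48%, 1.52% and 1.62%. Unthinned, the shares in migratory dendritic cell-like cells were 45.6%, 34.2% and 41.9%, at median depths of 2863, 1676 and 2496 UMIs, so the lower share with GW5074 was not seen at equal depth. Thinning left out 129, 378 and 56 of these cells. In alveolar macrophage-like cells the unthinned shares were 5.84%, 3.85% and 4.09%, at median depths of 3493, 2303.5 and 2783.5 UMIs.

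Among migratory dendritic cells the high Spred1 level was in each of 3 Leiden clusters, groups found from all genes without using the gate. In cluster 2 it was at 250, 259 and 262 CPM, and in cluster 7 at 263, 258 and 244 CPM. Cluster 12 held 1398, 42 and 15 cells, nearly all from WT DMSO, and had 202 CPM (188 to 216) in that library.

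**Figure D1:**
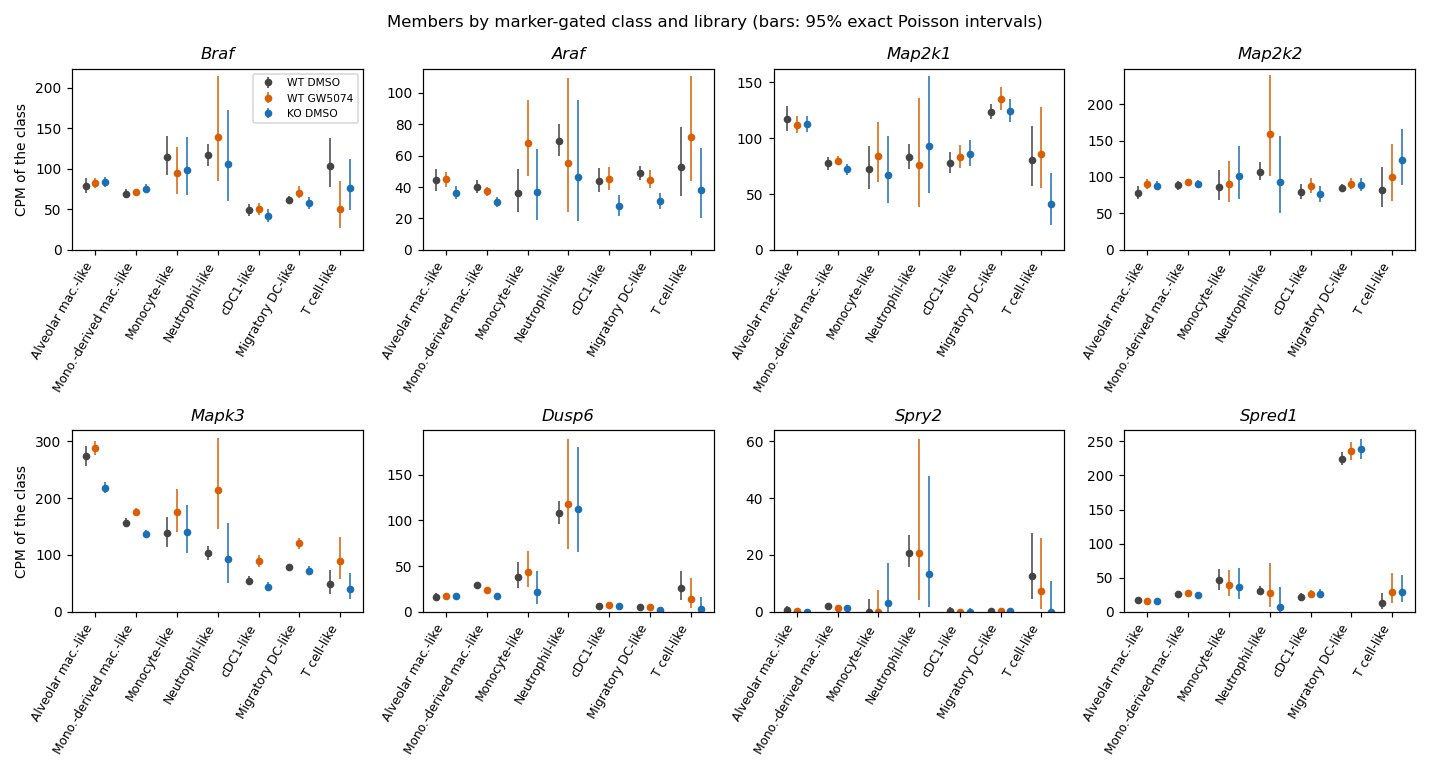
Level of each of the 8 genes (CPM of the class, linear axes from 0, one scale per gene) in 7 marker-gated classes and 3 libraries, with 95% exact Poisson intervals as bars. Mapk3 was highest in alveolar macrophage-like cells (219 to 288 CPM), Dusp6 and Spry2 in neutrophil-like cells (108 to 118 and 13.3 to 20.8 CPM), and Spred1 in migratory dendritic cell-like cells (225 to 239 CPM).

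Across the 23 class-by-library sums of at least 100 cells, the genes most like each feedback gene were taken by Pearson's r of log2(CPM + 1) among 9734 genes. These sums share libraries and class markers, so r is a description. For Dusp6 they were Clec5a (r = 0.95), a myeloid activating receptor, Cd300lf (r = 0.94), an inhibitory receptor of myeloid cells, and Selenon (r = 0.94), a selenoprotein. Clec5a was at 337, 201 and 206 CPM in neutrophil-like and 12.9, 10.1 and 5.46 CPM in migratory dendritic cell-like cells. For Spry2 they were Upp1 (r = 0.90), an enzyme of uridine breakdown, the chemokine Ccl3 (r = 0.88) and the macrophage growth factor Csf1 (r = 0.87). Upp1 was at 25.3, 20.8 and 59.7 CPM in neutrophil-like cells and at 3.59 CPM or less in every library of the other 6 classes. For Spred1 they were Tnfrsf11a (r = 0.92), the receptor RANK, Tnip3 (r = 0.91), an inhibitor of NF-κB signalling, and Stxbp6 (r = 0.91), a syntaxin-binding protein. Tnfrsf11a was at 365, 442 and 385 CPM in migratory dendritic cell-like cells, and at 73.6 CPM or less in the others. Between members, r was 0.70 for Dusp6 with Spry2 and 0.77 for Dusp6 with Braf.

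Among the kinases, Mapk3 was at 274 (257 to 291), 288 (276 to 300) and 219 CPM (208 to 229) in alveolar macrophage-like cells, above every value of the other classes. The interval of neutrophil-like cells with GW5074 (146 to 305) overlapped these. The monocyte-derived macrophage-like class had 157, 176 and 137 CPM, monocyte-like cells 138, 175 and 141 CPM, and neutrophil-like cells 103, 215 and 92.8 CPM. Migratory dendritic cell-like cells had 79.0, 120 and 72.7 CPM, cDC1-like cells 54.5, 88.9 and 43.9 CPM, and T cell-like cells 48.8, 89.7 and 41.0 CPM. From the second class downward, each range overlapped that of its neighbour. At 1000 UMIs per cell, 25.3%, 25.3% and 20.9% of alveolar macrophage-like cells had a Mapk3 UMI, against 4.98%, 11.4% and 5.10% of T cell-like cells, for which 201, 79 and 157 cells were deep enough. Unthinned, the shares were 61.2%, 49.2% and 45.4%, against 6.73%, 8.91% and 5.88%, the T cell-like cells having median depths of 1256, 796 and 1103.5 UMIs.

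Braf ran from 42.0 CPM in cDC1-like cells of the KO library to 139 CPM in neutrophil-like cells with GW5074. In both macrophage classes it was level, at 78.6, 82.2 and 83.1 CPM in alveolar and 69.2, 71.6 and 75.5 CPM in monocyte-derived macrophage-like cells. Monocyte-like cells had 114, 94.7 and 98.2 CPM, neutrophil-like cells 117, 139 and 106 CPM, cDC1-like cells 48.7, 49.99 and 42.0 CPM, migratory dendritic cell-like cells 61.7, 70.7 and 57.4 CPM, and T cell-like cells 104, 50.2 and 76.1 CPM. The values of the lowest class, cDC1-like cells, did not overlap those of its neighbour. Intervals did, as for cDC1-like cells with GW5074 (42.6 to 58.3) and migratory dendritic cell-like cells of the KO (50.7 to 64.8).

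Map2k1 (MEK1) was highest in migratory dendritic cell-like cells at 124, 135 and 124 CPM, followed by alveolar macrophage-like cells at 117, 112 and 113 CPM. The values of neither overlapped those of its neighbour in the order, but intervals did. That of migratory dendritic cell-like cells in the KO (114 to 135) overlapped that of alveolar macrophage-like cells in WT DMSO (107 to 129). The interval of neutrophil-like cells with GW5074 reached 136 CPM. The next were neutrophil-like cells (83.4, 76.3 and 92.8 CPM), cDC1-like cells (77.8, 83.1 and 86.2 CPM) and monocyte-derived macrophage-like cells (77.4, 79.8 and 72.0 CPM). Monocyte-like cells had 72.0, 84.4 and 67.5 CPM, and T cell-like cells 80.6, 86.1 and 41.0 CPM.

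Map2k2 (MEK2) was even, its class means over the 3 libraries lying between 81.1 and 120 CPM, and all of its neighbouring classes overlapped. It was at 78.4, 89.8 and 88.1 CPM in alveolar macrophage-like, 88.6, 92.9 and 90.8 CPM in monocyte-derived macrophage-like, 86.9, 90.5 and 101 CPM in monocyte-like, and 107, 159 and 92.8 CPM in neutrophil-like cells. Dendritic cells had 79.3, 87.7 and 76.3 CPM (cDC1-like) and 84.3, 90.8 and 89.0 CPM (migratory), and T cell-like cells 82.7, 101 and 123 CPM.

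Araf was at 71.8 CPM or less in every one of the 7 classes and 3 libraries. It was at 44.2, 44.8 and 36.4 CPM in alveolar macrophage-like, 40.2, 37.3 and 30.3 CPM in monocyte-derived macrophage-like, 36.01, 67.9 and 36.8 CPM in monocyte-like, and 69.2, 55.5 and 46.4 CPM in neutrophil-like cells. cDC1-like cells had 44.0, 45.1 and 27.8 CPM, migratory dendritic cell-like cells 48.8, 44.6 and 31.0 CPM, and T cell-like cells 53.0, 71.8 and 38.04 CPM. All neighbouring classes overlapped.

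GW5074 and DMSO were compared in WT to see how the cascade's transcripts stood under a RAF inhibitor. In macrophages they stood close to the DMSO level. No member was called in alveolar macrophage-like cells, where 5 of 8 passed the filter on low values, nor in monocyte-derived macrophage-like cells, where 7 of 8 passed. By the same rule 1.9% and 1.32% of all genes tested were called there. In alveolar macrophage-like cells the 5 kinases lay between 0.952-fold (Map2k1, 0.847 to 1.07) and 1.15-fold (Map2k2, 0.997 to 1.32). In monocyte-derived macrophage-like cells Braf was at 1.03-fold (0.941 to 1.14), Map2k1 at 1.03-fold (0.943 to 1.13) and Mapk3 at 1.12-fold (1.06 to 1.20). Dusp6 there was at 0.812-fold (0.696 to 0.949) and Spred1 at 1.05-fold (0.896 to 1.22). These intervals leave out a 1.5-fold difference in either direction for each of the kinases and feedback genes named.

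With GW5074, Map2k2 was above DMSO in 7 of 7 classes, at 1.04 to 1.49-fold, and was not called in any. All these ratios share the same 2 libraries. The member with the most calls was Mapk3, also above DMSO in 7 of 7 classes. It was called higher in neutrophil-like cells at 2.09-fold (1.39 to 3.04, background 13.9% of genes), cDC1-like cells at 1.63-fold (1.35 to 1.98, background 6.51%) and migratory dendritic cell-like cells at 1.53-fold (1.37 to 1.69, background 6.74%). T cell-like cells had 1.84-fold (1.001 to 3.39) below the filter on low values. The ratios were 1.27-fold (0.945 to 1.70) in monocyte-like, 1.12-fold in monocyte-derived macrophage-like and 1.05-fold (0.976 to 1.14) in alveolar macrophage-like cells. In the 4 deepest classes, both macrophage and both compared dendritic classes, Mapk3, Braf and Map2k2 were above DMSO in all 4, as were 15.7% of 4967 genes. The ratios of different classes were not tested against each other.

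Alveolar macrophages hold the most Mapk3, and 12 of 12 of their markers were detected in migratory dendritic cell-like cells of every library. Their summed level there was 443 and 499 CPM in WT DMSO and WT GW5074, 1.13-fold higher with GW5074 than with DMSO. In cDC1-like cells, where Krt79 was at 0 in WT DMSO, it was 1235 and 1283 CPM, or 1.04-fold. Were these markers to bring Mapk3 at the alveolar ratio, they would carry 13.05 and 15.9 CPM of Mapk3 in migratory dendritic cell-like cells, leaving 65.9 and 105 CPM. In cDC1-like cells they would carry 36.4 and 40.9 CPM, leaving 18.2 and 48.0 CPM. The remaining Mapk3 would be 1.59-fold and 2.64-fold higher with GW5074 in these 2 classes. The second value depends on a large subtraction, 36.4 of 54.5 CPM in WT DMSO. Whether these markers bring Mapk3 at that ratio was not tested. In neutrophil-like cells the list summed to 6011 and 1497 CPM, which at the alveolar ratio would carry 177 and 47.8 CPM of Mapk3. The first is more than the 103 CPM measured, so this ratio overstates the carried share in that class. That comparison rests on 133 neutrophil-like cells and 31 Mapk3 UMIs with GW5074.

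By cluster, Mapk3 in migratory dendritic cells was at 91.7 (81.0 to 103) and 125 CPM (112 to 140) in cluster 2, and at 74.8 (65.0 to 85.7) and 90.0 CPM (77.6 to 104) in cluster 7, in DMSO and GW5074. Cluster 12, mostly of WT DMSO, was lower at 57.3 CPM (50.2 to 65.1). Without it the migratory dendritic cell-like log2 ratio was 0.40, in place of 0.61, and no longer called. This call was lost in 5 of 11 alternatives, also with Leiden clusters as classes and without the highest doublet scores. In cDC1 cluster 9 the values were 38.9 (31.2 to 48.0) and 63.4 CPM (52.7 to 75.7). Drawing 1000 UMIs at random from each cell gave log2 ratios of 0.17 in cDC1-like, 0.42 in migratory dendritic cell-like and 0.63 in neutrophil-like cells, none called. Such a draw keeps few UMIs, and the expected counts at that depth gave 0.79, 0.57 and 0.62. The cDC1-like value was called and the migratory one was not, while the neutrophil-like value was past the rule with an interval taken from the counts of all cells of the class, although only 559 and 43 cells of WT DMSO and WT GW5074 reach that depth.

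The other GW5074 calls came from small classes. Araf was higher in monocyte-like cells, at 1.89-fold (1.11 to 3.22) from 29 and 33 UMIs, where 12.6% of genes were called. It fell short of the rule with a stricter gate, thinned, or without the WT DMSO-dominated clusters. Braf was lower in T cell-like cells, at 0.483-fold (0.246 to 0.890) from 49 and 14 UMIs, where 8.29% of genes were called, and fell short in 4 of 11 alternatives. Over the 7 classes, 5 of the 42 pairs of a member and a class that passed the filter were called with GW5074, beside 7.07% of all gene and class pairs.

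**Figure D2:**
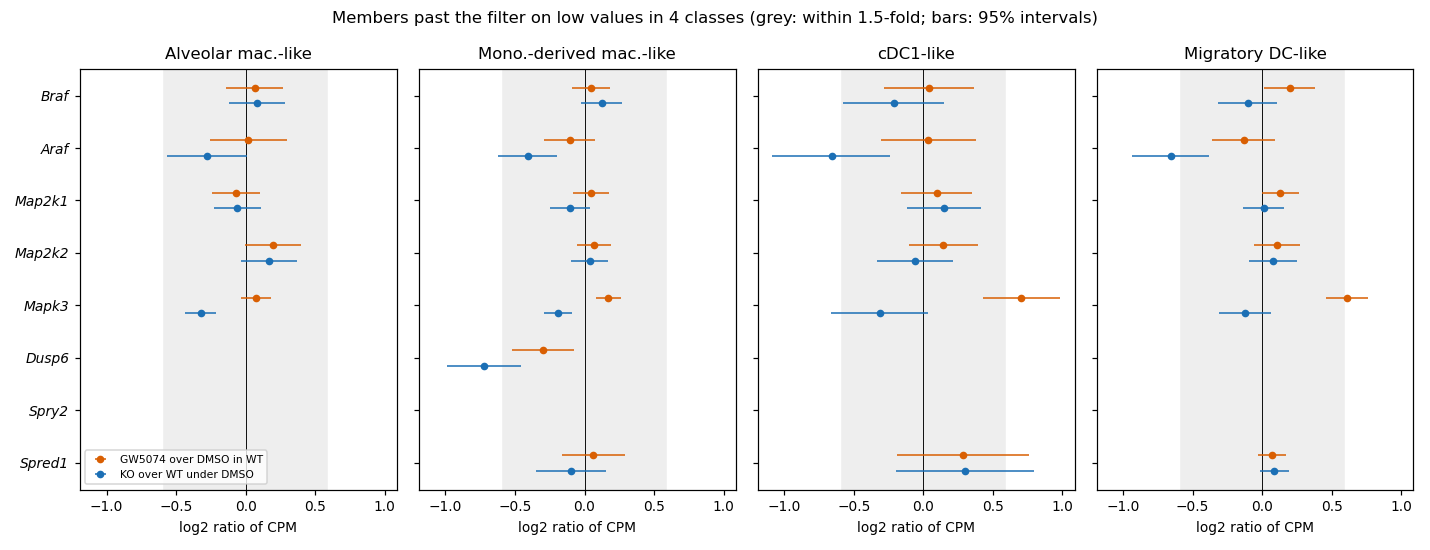
Log2 ratio of CPM for the members that passed the filter on low values, in 4 classes (panels), for GW5074 over DMSO in WT (orange) and KO over WT under DMSO (blue), which share the WT DMSO library. Bars are 95% exact intervals and grey marks differences within 1.5-fold; in macrophages only Dusp6 in the KO lay outside it, and in dendritic cells Mapk3 with GW5074 and Araf in the KO.

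The KO and WT libraries under DMSO were compared to see how the same transcripts stood without Clec7a. Dusp6 was lower in monocyte-derived macrophage-like cells of the KO. Its 202 UMIs gave 17.4 CPM (15.1 to 20.003), against 28.7 CPM (25.4 to 32.3) from 275 UMIs in WT, a ratio of 0.607 (0.503 to 0.730). It was the only member called there among 7 that passed the filter, and 4.91% of all genes tested were called. Of the 2 libraries compared, Dusp6 reached 20 CPM in WT only, so it passed the filter through the library where it was higher. The call held in 11 of 11 alternatives, with log2 ratios from -0.84 to -0.62 around -0.72. It was also below WT in 2 clusters of these cells, at 31.9 (25.3 to 39.8) and 19.9 CPM (15.5 to 25.1) in cluster 3 and 38.7 (30.9 to 47.9) and 22.5 CPM (18.0 to 27.9) in cluster 4. In cluster 0 the values were 16.1 and 13.1 CPM, and in the mostly WT DMSO cluster 11 they were 35.1 and 31.0 CPM, with overlapping intervals in both.

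Neutrophil markers moved with this result. All 9 of 9 were detected in monocyte-derived macrophage-like cells of every library, and they summed to 2495 CPM in WT DMSO and 382 CPM in the KO, with 413 CPM in WT GW5074. At the neutrophil ratio they would carry 5.03, 1.72 and 0.994 CPM of Dusp6. The Dusp6 left would be 23.7, 21.6 and 16.4 CPM, with the KO at 0.694-fold of WT, short of 1.5-fold. Whether these markers bring Dusp6 at that ratio was not tested.

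Dusp6 in the other classes of the KO had few molecules. It was at 0.419-fold (0.190 to 0.832) in migratory dendritic cell-like cells, from 53 and 10 UMIs, and at 0.115-fold (0.003 to 0.777) in T cell-like cells, from 12 and 1 UMIs. Both were below the filter on low values. In alveolar macrophage-like cells it was at 1.07-fold (0.784 to 1.49), in cDC1-like cells at 0.985-fold (0.477 to 1.99962) and in neutrophil-like cells at 1.05-fold (0.602 to 1.71). Among the few neutrophil-like cells that reach 1000 UMIs, expected counts gave a log2 ratio of -1.14 in place of 0.07.

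Araf was below WT in the KO in 6 of 7 classes. It was called lower in migratory dendritic cell-like cells at 0.635-fold (0.523 to 0.766, background 15.4% of genes) and in cDC1-like cells at 0.633-fold (0.470 to 0.845, background 12.8%). It stood at 0.753-fold (0.650 to 0.873) in monocyte-derived and 0.824-fold (0.677 to 1.01) in alveolar macrophage-like cells. The ratios were 0.670-fold (0.266 to 1.41) in neutrophil-like, 0.717-fold (0.337 to 1.46) in T cell-like and 1.02-fold (0.475 to 2.07) in monocyte-like cells. These KO ratios are relative to a general shift in all genes tested. The median log2 ratio of these genes was -0.13 in migratory dendritic cell-like and -0.07 in cDC1-like cells, where Araf was called. In the classes without an Araf call it was -0.17 in neutrophil-like, -0.11 in T cell-like and -0.09 in monocyte-like cells. Macrophages had -0.09 (monocyte-derived) and -0.04 (alveolar). Scaled by median-of-ratios size factors, Araf was at a log2 ratio of -0.47 in migratory dendritic cell-like and -0.57 in cDC1-like cells, in place of -0.66 in both, and not called. The cDC1-like value fell short in 6 of 11 alternatives, down to -0.26 when thinned, and the migratory one in 2 of 11, with -0.42 when thinned. In all 4 of the deepest classes Araf and Mapk3 were below WT, as were 34.6% of 4841 genes.

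**Figure D3:**
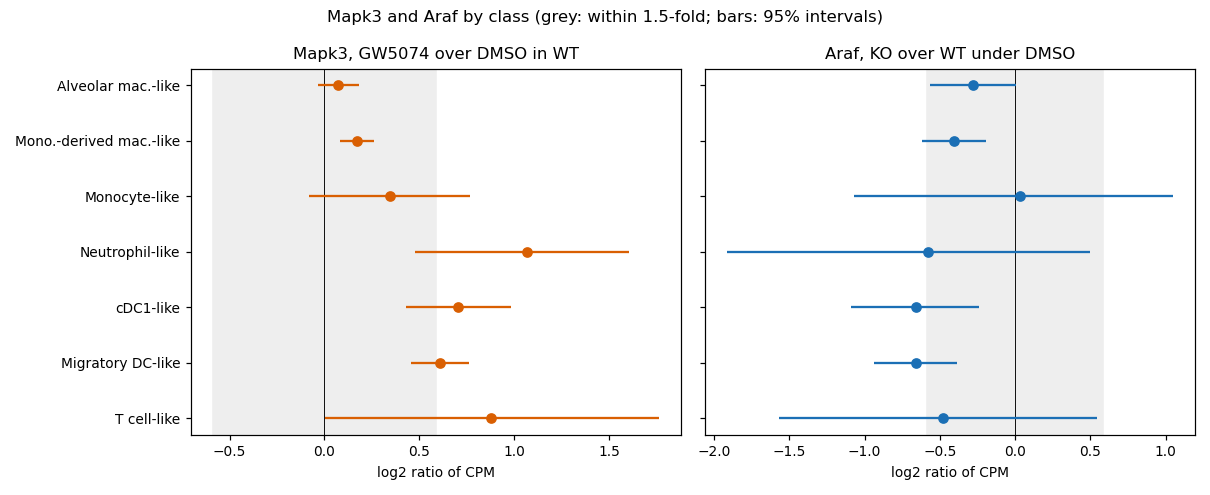
Log2 ratio of CPM by class for Mapk3 with GW5074 over DMSO in WT (left) and Araf in KO over WT under DMSO (right), with 95% exact intervals as bars and differences within 1.5-fold in grey. Mapk3 was above DMSO in 7 of 7 classes, past 1.5-fold in 4 of them, and Araf was below WT in 6 of 7, past 1.5-fold with an interval excluding 1 in 2.

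Mapk3 itself was not called in the KO in any of the 7 classes. It stood at 0.799-fold (0.739 to 0.865) in alveolar macrophage-like cells, where none of 5 members that passed the filter was called and 6.69% of genes were, and at 0.877-fold (0.816 to 0.941) in monocyte-derived macrophage-like cells. In alveolar cluster 6 it was at 262 (241 to 284) and 186 CPM (171 to 202), and in cluster 1 at 287 (259 to 318) and 239 CPM (224 to 254). No member was called in monocyte-like cells, where 17% of genes were called, or in neutrophil-like cells, where 13.4% were. Map2k1 was called lower in T cell-like cells at 0.508-fold (0.254 to 0.960) from 38 and 14 UMIs, against a background of 14.9%, and fell short in 7 of 11 alternatives. Spred1 in migratory dendritic cell-like cells was at 1.06-fold (0.987 to 1.14). Over the 7 classes, 4 of the 39 pairs that passed the filter were called in the KO, beside 11.6% of all gene and class pairs.

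**Figure D4:**
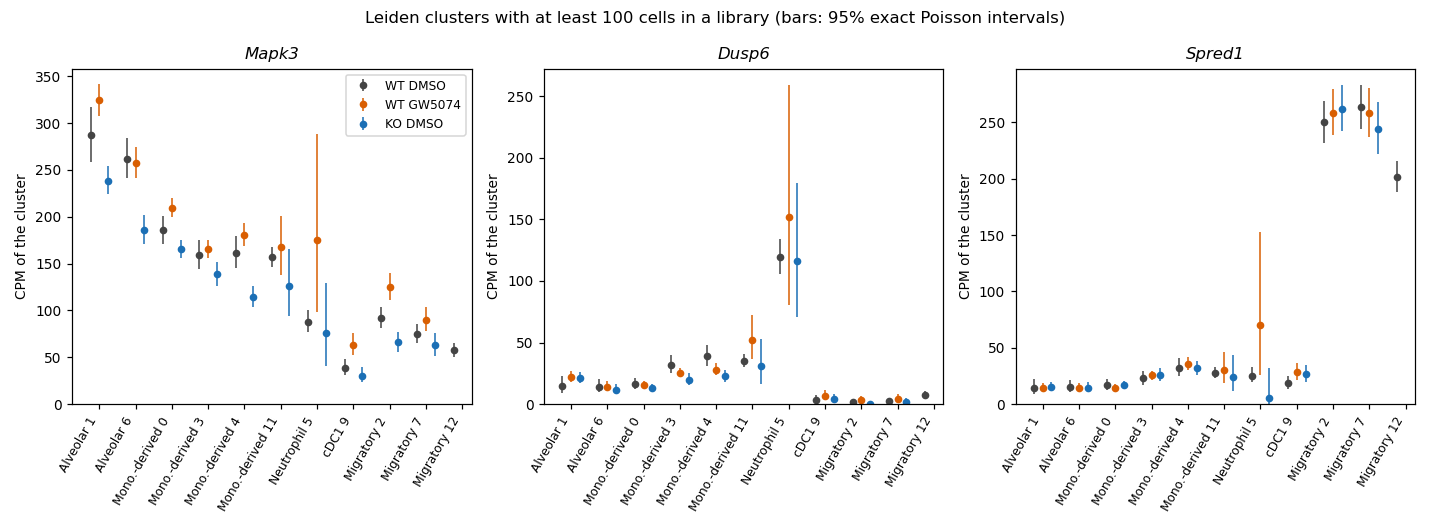
Mapk3, Dusp6 and Spred1 (CPM of the cluster, linear axes from 0) in 11 Leiden clusters, shown for libraries with at least 100 cells in the cluster, with 95% exact Poisson intervals. Mapk3 of the KO was lowest of the 3 libraries in both alveolar clusters, Dusp6 of the KO was below WT DMSO in monocyte-derived clusters 3 and 4, and Spred1 was at 202 to 263 CPM in the migratory clusters.

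The wider pathway was described by 67 other genes in 6 roles. In alveolar and monocyte-derived macrophage-like cells, 1.9% and 1.32% of all genes tested were called with GW5074, and 6.69% and 4.91% in the KO. Of the RAS proteins and their activators, 0 of 10 tested were called with GW5074 in alveolar and 0 of 12 in monocyte-derived macrophage-like cells. The most abundant was the adaptor Gab2, at 708, 798 and 1005 CPM in alveolar macrophage-like cells. In the KO the RAS exchange factor Rasgrp4 was lower in monocyte-derived macrophage-like cells, at 30.1 CPM in WT and 19.6 CPM in the KO. It thus passed the filter through WT only. Less the share that neutrophil markers would carry, it would be at 24.3 and 16.8 CPM, short of 1.5-fold. Among other core kinases and scaffolds, 0 of 7 were called in either comparison and macrophage class. The list's median log2 ratio with GW5074 was 0.01 in alveolar and -0.04 in monocyte-derived macrophage-like cells, beside -0.00 and -0.02 over all genes tested.

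Of the other feedback genes, 0 of 5 and 0 of 3 were called in the 2 macrophage classes with GW5074, and likewise in the KO. The most abundant was Nf1, which encodes neurofibromin, at 66.1, 62.9 and 75.5 CPM in alveolar and 74.4, 76.9 and 75.1 CPM in monocyte-derived macrophage-like cells. Beside Spred1, 2 more genes of this list were abundant in migratory dendritic cell-like cells, and both were picked out after their values were seen. The ERK phosphatase Dusp5 was at 266, 270 and 259 CPM there against 44.0, 29.8 and 32.9 CPM in alveolar macrophage-like cells. In neutrophil-like cells Dusp5 was at 61.8, 55.5 and 99.5 CPM. The RAS inactivator Rasa2 was at 310, 354 and 335 CPM in migratory dendritic cell-like against 31.4, 32.2 and 36.2 CPM in alveolar macrophage-like cells. Other classes were closer, with Rasa2 at 211, 139 and 199 CPM in neutrophil-like and 102, 108 and 84.9 CPM in T cell-like cells. Spry4 had no UMI in either macrophage class, nor in migratory dendritic cell-like or neutrophil-like cells.

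Genes induced through ERK were the only one of the 6 lists with more than 1 call in a macrophage class with GW5074. In alveolar macrophage-like cells 2 of 4 tested were lower, Egr1 and Ier3, and the median log2 ratio was -0.80, where 1.9% of all genes were called. Both genes reached 20 CPM there in WT DMSO only, so this count and median rest in part on genes that passed the filter through that library. In monocyte-derived macrophage-like cells 3 of 4 were lower, where 1.32% of all genes were called. Ier2 there was at 103 CPM in DMSO and 64.9 CPM in GW5074, and the list's median was -0.90, beside -0.02 over all genes. In migratory dendritic cell-like cells 4 of 5 were lower, where 6.74% of all genes were called. Of these, Egr1 (18.4 CPM with GW5074) and Ier3 (16.9 CPM) again reached 20 CPM in WT DMSO only. In cDC1-like cells 1 of 6 was called, Ier3, lower, with a list median of 0.04 and Egr1 at 223 CPM in DMSO and 248 CPM in GW5074. Fos, the most abundant, was not called with GW5074 in macrophages, and was higher in the KO in alveolar macrophage-like cells at 188 CPM, against 118 CPM in WT. Phlda1 was higher there too, at 24.2 against 9.56 CPM, and reached 20 CPM in the KO only. Egr1 and Ier3 were lower in both macrophage classes of the KO, with Egr1 at 33.9 CPM in WT and 14.9 CPM in the KO in the alveolar class. Ier3 was at 43.4 and 15.1 CPM there, and both genes reached 20 CPM in WT only in that class.

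Neutrophil markers moved with these calls too, and Egr1 and Ier3 were at 1067 and 1126 CPM in neutrophil-like cells of WT DMSO. The summed markers were at 1106, 256 and 305 CPM in alveolar macrophage-like cells and at 1215, 149 and 93.4 CPM in migratory dendritic cell-like cells, beside the values given above for monocyte-derived macrophage-like cells. At the neutrophil ratio they would carry 49.9, 9.10 and 9.59 CPM of the Egr1 in monocyte-derived macrophage-like cells. That would leave 14.99, 20.5 and 19.5 CPM of Egr1, not lower in either comparison. Ier3 there would be left at 39.5, 29.8 and 34.8 CPM, and Ier2 at 77.9, 60.4 and 64.6 CPM, all within 1.5-fold of WT DMSO. In alveolar macrophage-like cells Egr1 would be left at 11.8, 6.68 and 7.20 CPM and Ier3 at 20.1, 10.1 and 3.07 CPM. There both would stay more than 1.5-fold lower than WT DMSO in both comparisons. In migratory dendritic cell-like cells the remainder is given for Egr1 only, of the genes called there. Egr1 would be left at 18.2, 15.1 and 10.1 CPM, within 1.5-fold with GW5074 and lower past it in the KO. These remainders take every marker UMI as carried at the neutrophil ratio, which was not tested.

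Of kinases downstream of ERK, 0 of 6 and 0 of 5 were called in the macrophage classes in both comparisons, and the most abundant was Rps6ka3 at 196, 207 and 211 CPM in alveolar macrophage-like cells. Of genes of the p38 and JNK cascades, the phosphatase Dusp1 was the single call of 9 tested in each macrophage class with GW5074. It was lower in both, where 1.9% and 1.32% of all genes were called. Less the share carried at the neutrophil ratio it would be at 44.2 and 25.5 CPM in alveolar macrophage-like cells. In monocyte-derived macrophage-like cells it would be at 60.7 and 38.3 CPM, and in both classes it would stay more than 1.5-fold lower. Dusp1 was also lower in monocyte-derived macrophage-like cells of the KO. There 57.3 CPM would be left, within 1.5-fold of the 60.7 CPM left in WT DMSO. Mapk8 (JNK1) was lower in the same class, at 22.4 CPM in WT and 14.7 CPM in the KO, and reached 20 CPM in WT only. The most abundant, Map3k5, was at 234, 272 and 275 CPM in alveolar macrophage-like cells and was not called.

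Map2k7, a kinase that activates JNK, was lower in the KO in both macrophage classes, and with values in hand was followed to the others. In alveolar macrophage-like cells it was at 36.3, 34.9 and 17.3 CPM, a KO ratio of 0.475 (0.372 to 0.608). In monocyte-derived macrophage-like cells it was at 27.7, 29.4 and 14.7 CPM, and in migratory dendritic cell-like cells at 26.7, 24.5 and 9.82 CPM, a KO ratio of 0.368 (0.262 to 0.505). cDC1-like cells had 27.0 CPM in WT and 15.3 CPM in the KO under DMSO. In each of these 4 classes the KO interval lay below 1, and 20 CPM was reached in WT but not in the KO. With GW5074 the ratio was 0.961 (0.777 to 1.19) in alveolar, 1.06 (0.913 to 1.23) in monocyte-derived macrophage-like, 0.917 (0.739 to 1.13) in migratory dendritic cell-like and 1.40 (1.05 to 1.86) in cDC1-like cells.

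**Figure D5:**
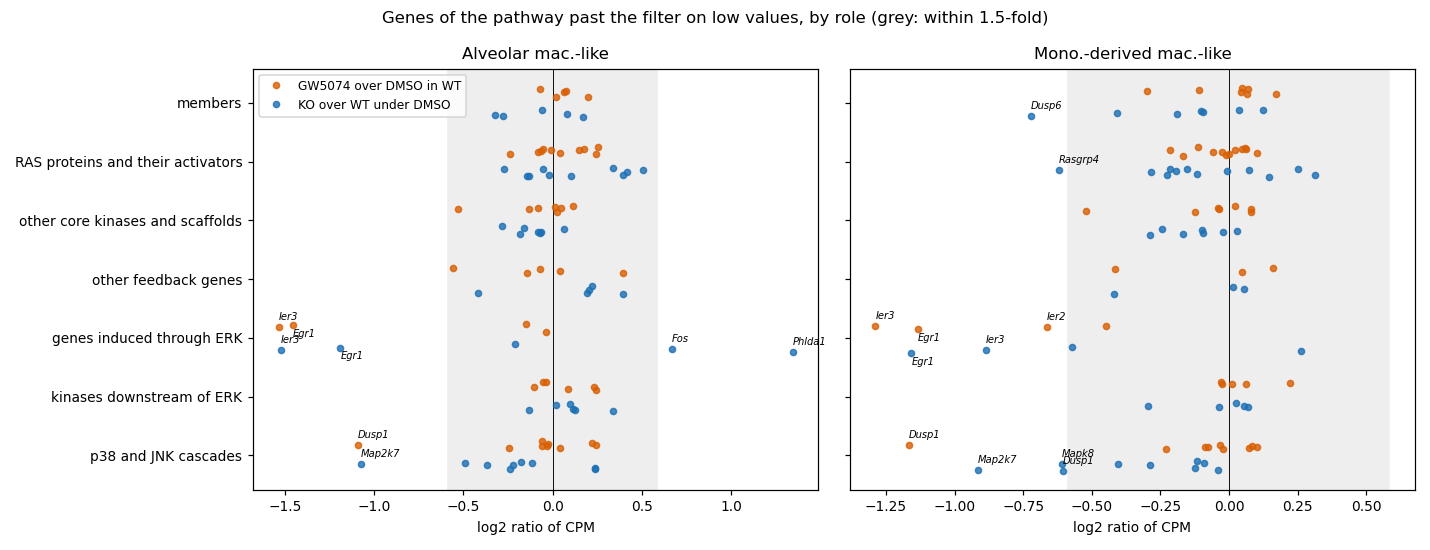
Log2 ratio of CPM of the members and of pathway genes by role (rows) in alveolar (left) and monocyte-derived (right) macrophage-like cells, for GW5074 over DMSO in WT (orange) and KO over WT under DMSO (blue), with points spread vertically for legibility. Only genes past the filter on low values are drawn, and those called are named; the members lay within 1.5-fold (grey) apart from Dusp6 in the KO, while genes induced through ERK spread from -1.53 to 1.34.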

How the data were processed

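RNA of single lavage cells from 3 pools was read at its 3' ends in droplets. The authors deposited raw UMI counts per gene and barcode. Cell Ranger 2.1.1 and the build mm10 are named, per the submitters' processing notes, and the labels' protocols name a SeekOne chip while another label names 10x Genomics. Every deposited barcode had at least 500 UMIs.

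Barcodes under 200 genes or over 20% mitochondrial UMIs were left out. Each cell took the class with the highest mean scaled marker score, at 0.15 or more, 0.05 above the next, with 3 markers detected. These thresholds were set after the data were seen. Scrublet scores were used only in an alternative, and no doublet was removed. UMIs were summed per class and library. Ratios have exact conditional binomial intervals, levels exact Poisson intervals, and shares exact Clopper-Pearson intervals, at 95%. The size rule was checked on simulated counts. A count of 0 allows 3 counts. No p-values were computed, since cells are not replicates.

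The members and gene lists were chosen with earlier results of these data known. The rule named all 8 members and, from each list, the genes past the size rule in a macrophage class and the most abundant one. For 1 gene named by this rule the result is not reported here. GENCODE M21 held 32236 of 32286 identifiers, and RefSeq held promoters of 7 of the 8 members. Python 3.11.15, scanpy 1.11.5, scipy 1.17.1 and leidenalg 0.10.2 were used.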

Additional observations from a re-analysis of the deposited data

How the results depend on the processing

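Of 957 values recomputed under the alternatives, 932 moved by less than their interval or 1.5 times, 25 moved by more, and none changed sign past its call. With GW5074, 5 pairs of a member and a class were called. The number was 3 with Leiden clusters as classes, 0 with cells thinned to 1000 UMIs, 2 with a 2-fold rule and 3 without the clusters dominated by WT DMSO, an alternative chosen after seeing the data, as were the expected counts at 1000 UMIs. No Leiden cluster was classed as monocyte, so Araf in that class was not recomputed there. Of the 5 pairs, Leiden clusters kept Mapk3 in neutrophil-like and cDC1-like cells, so the 3 include a pair outside the 5. In the KO, 4 pairs were called. The number was 2 without the 10% highest doublet scores, 2 with median-of-ratios size factors, 2 thinned and 0 with a 2-fold rule. Of the 4 pairs, size factors and thinning each kept 1, Dusp6 in monocyte-derived macrophage-like cells, and each added 1, Map2k2 in T cell-like cells and Araf in monocyte-derived macrophage-like cells. The share of all genes called with GW5074 was 3.18% in alveolar and 3.90% in monocyte-derived macrophage-like cells with no filter on low values, and 1.23% in alveolar macrophage-like cells at 50 CPM or more. Thinning moved 16 of 79 values, the most of any alternative, and size factors 5 of 81. No paired analysis was possible because each group has 1 library, and no replicate could be left out. Depth limits the neutrophil-like, monocyte-like and T cell-like classes most, and Spry2 in all classes.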
